A study of Mus musculus with 18 samples.

Results

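Hepatocytes on the portal and central sides of the mouse liver lobule were compared across the fed state, an 8 h fast and a 24 h fast, to find the genes whose zone difference did not depend on 1 feeding state. The comparison set the mean of the 3 periportal groups against the mean of the 3 pericentral groups, with 1 coefficient per zone and state and equal weight for each state. It used all 18 libraries of the series, 9 from each zone and 3 in each of the 6 groups. Of the 28030 genes in the deposited table, 12477 held enough counts to be tested.

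All mice were wild-type C57BL/6J males aged 12 weeks, kept on chow, and none of the groups carried a transgene or deletion. For 3 days they were accustomed to a daytime meal after an overnight fast of 16 h. On the last day food came with 20% sucrose in the drinking water. Fed mice were killed 4 h into this meal, at clock hour 13. The other mice then lost food and sucrose and were killed 8 h later, at clock hour 21, or 24 h later, again at clock hour 13. The 8 h libraries therefore differ from the other libraries in the hour of the day as well, and both periportal and pericentral groups share this. The sample names mention digitonin, a detergent used in liver perfusion to destroy the hepatocytes of 1 side of the lobule so that those of the other side can be collected. The labels do not say whether libraries with the same number came from the same mouse or day. P-values therefore measure the spread between these libraries, which may in part be technical.

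As background, blood enters the lobule at the portal triad, rich in oxygen, nutrients and pancreatic hormones, and leaves through the central vein. Hepatocytes near the portal triad are known for gluconeogenesis, urea synthesis, histidine and serine breakdown and secretion of plasma proteins. Those near the central vein are known for glutamine synthesis, drug metabolism by cytochromes P450 and bile acid synthesis, and they receive Wnt signals from the endothelium of the central vein.

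Libraries held 18359911 to 26384358 estimated counts, and mitochondrial genes took 6.93% to 9.80% of them. The mean log2 level of periportal markers minus that of pericentral markers separated the zones, with values from 2.14 to 4.15 in the 9 periportal libraries. In 8 of the pericentral libraries it ran from -4.78 to -2.92. The library labelled pericentral 24 h replicate 2 stood apart at -0.04, and a bare value in parentheses after a 24 h value leaves it out. Markers of other liver cells also differed between the zones. Of 35 markers of sinusoidal endothelium, Kupffer cells and leukocytes, and stellate cells and fibroblasts, 33 had a higher mean in periportal libraries, and their summed level was 9.17 to 101 CPM (scaled counts per 1000000 reads, median 36.1) against 10.4 to 34.2 CPM (median 14.1). Of the 26 of these markers that were tested, 16 were called higher in periportal and 0 in pericentral libraries by edgeR, with 11 periportal calls without pericentral 24 h replicate 2, 4 by limma-voom and 22 by DESeq2. Markers of central vein endothelium were all too low to test, and the bile duct marker Epcam was at 0 in every library. In bulk RNA, fewer cells of a type and less RNA per cell cannot be told apart.

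**Figure D1:**
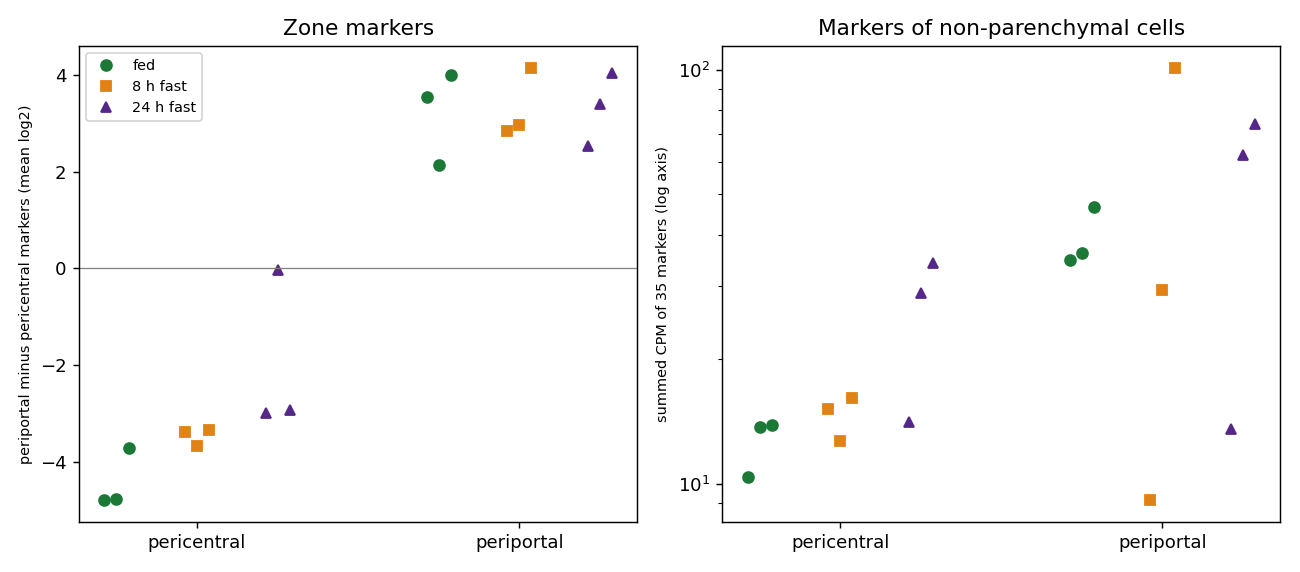
Left, the mean log2 level of periportal markers minus that of pericentral markers in each of the 18 libraries; right, the summed level of 35 markers of other liver cells in CPM on a log axis. Symbols give the feeding state. The pericentral 24 h library at -0.04 lies between the zones, and the marker sums reach 101 CPM in periportal libraries but no more than 34.2 CPM in pericentral ones.

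Averaged over the 3 states, 2532 genes were called between the zones by edgeR's quasi-likelihood test at an adjusted p under 0.05, which is 20.3% of those tested. Of these, 1289 (10.3%) were higher in periportal and 1243 (9.96%) in pericentral hepatocytes. Most differences were modest. The median size was 0.51 on the log2 scale, and 676 genes (5.42% of those tested) differed by at least 1, of which 385 were higher in periportal libraries. At a size of at least 2 there were 153 periportal and 134 pericentral genes. Of these strongly zoned genes, 35 periportal and 54 pericentral ones reached a mean of 10 CPM in their zone.

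For 158 genes every periportal library lay above every pericentral one (1.27% of genes tested), and for 165 the order was the other way (1.32%). All 323 of these genes were called. Protein-coding genes made up 98.0% of the called genes and 97.4% of all genes tested.

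The genes described first were called on average and in every state, reached 10 CPM in the higher zone, did not overlap between zones and had no predicted, Riken or pseudogene name. Of these, Aldh1b1 had the largest periportal difference, and it encodes a mitochondrial aldehyde dehydrogenase (chr4:45799022-45804604 in GRCm38, plus strand). Its level in pericentral libraries was 0.899, 1.5 and 2.73 CPM in fed mice, 2.58, 1.49 and 1.04 CPM after 8 h, and 2.42, 4.01 and 2.17 CPM after 24 h. In periportal libraries it was 232, 150 and 161 CPM, then 81.5, 195 and 194 CPM, then 95.7, 62.9 and 108 CPM. No periportal library came near the pericentral range, and averaging gave a log2 fold change of 6.06 (SE 0.28, edgeR adjusted p 7.14e-09), a 66.9-fold difference.

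Fgfr2, a receptor for fibroblast growth factors, was next under this rule. Its pericentral range was 0.899 to 9.41 CPM (median 1.97), with the highest value in 24 h replicate 2, and its periportal range 33.2 to 58.9 CPM (median 45.7). On average over the states the log2 fold change reached 4.24 (SE 0.23, edgeR adjusted p 2.26e-08). Apart from 24 h replicate 2, the highest pericentral level of the receptor was 4.35 CPM.

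The other 10 genes that met the same rule on the periportal side had averaged log2 fold changes between 2.97 and 4.05. Cryl1 encodes a dehydrogenase of the glucuronate pathway, and Ctsc the lysosomal protease cathepsin C. Reck is a membrane-bound inhibitor of matrix metalloproteases, and Sulf2 an enzyme that removes sulfate from heparan sulfate outside the cell. Aqp4 is a water channel, Olfm3 an olfactomedin protein, Tent5c a poly(A) polymerase, Setd7 a lysine methyltransferase, and Serpina12 the secreted protein vaspin. Ctnnbip1 binds β-catenin and keeps it from TCF factors. Its level was 1.28 to 10.1 CPM (median 3.40) in pericentral and 22.7 to 32.8 CPM (median 27.6) in periportal libraries, a log2 fold change of 3.06 (SE 0.13, edgeR adjusted p 4.23e-10).

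On the pericentral side the largest difference under the rule was that of Slc1a2, a plasma membrane glutamate transporter (chr2:102658659-102790784, plus strand). Pericentral libraries held 195, 217 and 95.8 CPM in fed mice, 129, 190 and 154 CPM after 8 h, and 241, 8.82 and 256 CPM after 24 h. Periportal libraries held 1.25 to 5.09 CPM (median 2.48). The value of 8.82 CPM came from the library that stood apart, and even it lay above all periportal ones. On average over the states the log2 fold change reached -6.00 (SE 0.56, edgeR adjusted p 4.55e-06).

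Oat, the ornithine aminotransferase that feeds glutamate synthesis, and its neighbour Lhpp, a phosphatase, were both in this group. Oat lies at chr7:132557478-132576398 and Lhpp at chr7:132610638-132706420. Oat held 257 to 1421 CPM (median 956) on the pericentral side and 11.8 to 58.2 CPM (median 22.0) on the periportal side, a log2 fold change of -5.00 (SE 0.40, edgeR adjusted p 1.04e-06). Lhpp ranged from 24.1 to 80.4 CPM against 0.441 to 4.36 CPM, a log2 fold change of -4.87 (SE 0.32, edgeR adjusted p 1.62e-07). The ranges of both genes were far apart, and the lowest pericentral value of Oat was again that of 24 h replicate 2.

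The other 9 genes had averaged log2 fold changes between -5.84 and -4.06. They were Serpina7, the thyroxine-binding globulin, the major urinary proteins Mup19 and Mup9, the cytochromes P450 Cyp2a5 and Cyp2c38, the retinol dehydrogenase family member Rdh9, the kinase Aatk, the complement regulator Susd4, and Nxpe2. Serpina7 held 4.25 to 63.1 CPM in pericentral and 0.046 to 0.606 CPM in periportal libraries. Mup19, Mup9, Cyp2a5 and Cyp2c38 have near-identical copies that share reads, so their separate levels are uncertain.

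**Figure D2:**
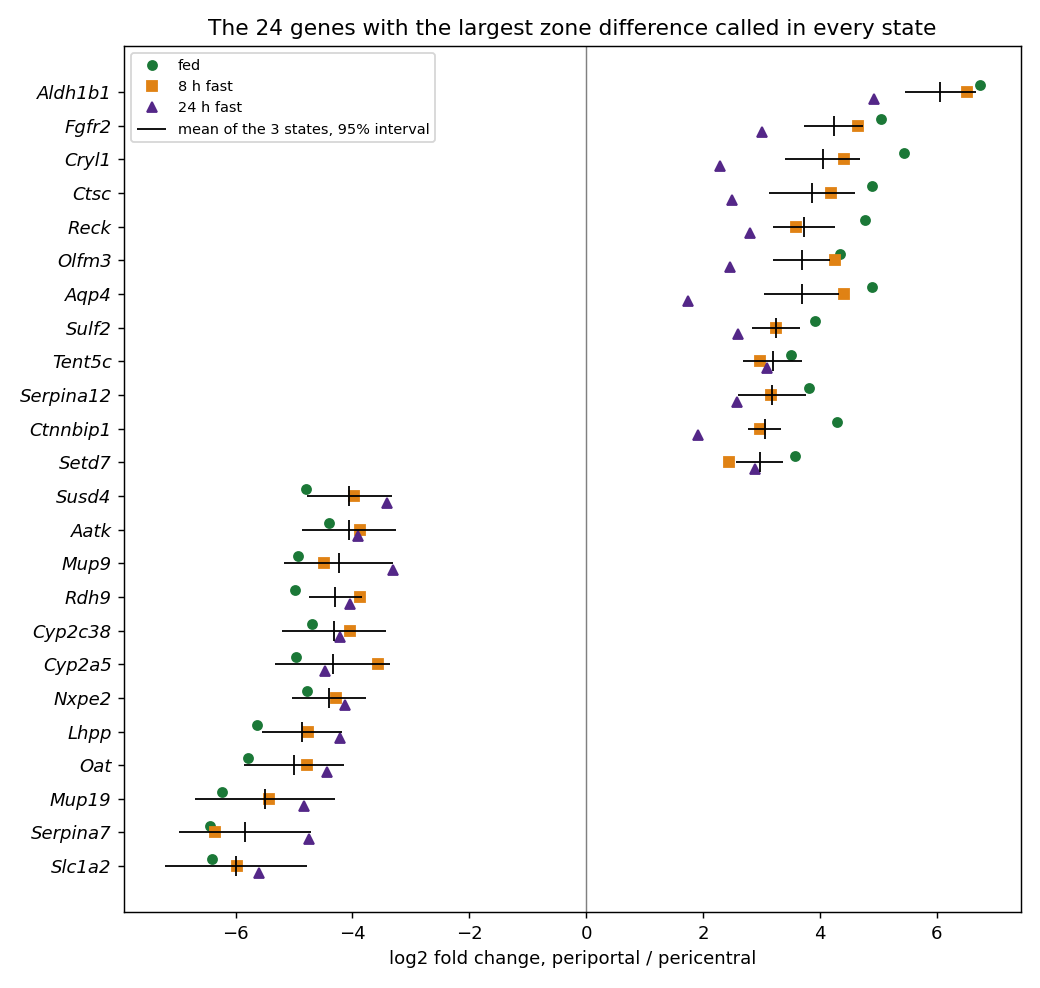
Zone difference of the 24 genes with the largest averaged log2 fold change among those called in every state, with at least 10 CPM in the higher zone and no overlap between zones. Coloured symbols are the 3 states, the tick is their mean and the line its 95% interval. The fed symbol lies farthest from 0 in all 24 genes, and the 24 h symbols of periportal genes lie closer to 0 than their fed ones.

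With families taken as symbols that share the letters before their last number, Serpina had members of at least 10 CPM and a log2 size of at least 2 on both sides. Serpina12 (chr12:104028769-104044443) was higher in periportal libraries by 3.18 on the log2 scale (SE 0.27, edgeR adjusted p 1.47e-06), with 13.0 to 46.6 CPM against 1.30 to 6.19 CPM. Serpina7 (chrX:139079257-139085236) was lower there, with a log2 fold change of -5.84 (SE 0.52, edgeR adjusted p 2.68e-06).

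The zone difference was then followed through the states. Tested within a state, 1000 genes (8.01%) were called in fed mice, 891 (7.14%) after 8 h and 520 (4.17%) after 24 h (457 without pericentral replicate 2). Of the 2532 genes called on average, 305 (2.44% of those tested) were called in all 3 states in the same direction, 135 periportal and 170 pericentral. Another 349 were called in 2 states, 670 in 1 and 1208 in none, while 128 genes were called in some state but not on average. The sign of the zone difference was the same in all 3 states for 2447 of the called genes (96.6%), compared with 47.5% of all genes tested. This share is a description, since the averaged contrast selects such genes.

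A measure that the selection did not use came from leaving a state out and calling genes on the rest. Of 992 periportal genes called in fed and 8 h libraries alone, 905 (91.2%) had a log2 fold change above 0 after 24 h, as had 50.2% of all genes. In 475 of them (47.9%) all 3 periportal libraries lay above all 3 pericentral ones at 24 h, compared with 10.5% of all genes. Of 950 pericentral genes called in the same way, 860 (90.5%) had the same sign at 24 h, and 501 (52.7%) did not overlap, compared with 11.7% of all genes. Without pericentral 24 h replicate 2 the same sign was seen in 93.2% and 92.5%, and no overlap in 60.5% and 63.7%, compared with 14.9% and 16.2% of all genes. With the 8 h libraries held out, 96.9% of 808 periportal and 95.6% of 842 pericentral genes had the same sign there, where 51% of all genes were above 0. Of the periportal genes 58.5% and of the pericentral genes 62.5% did not overlap at 8 h, compared with 12.1% and 11.7% of all genes. With the fed libraries held out, 94.8% of 652 and 97.3% of 673 had the same sign, where 50.2% of all genes were above 0. In fed mice 68.3% and 76.1% did not overlap, compared with 14.4% and 13.9%. In every held-out state the genes called elsewhere separated the zones more often than genes in general.

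The medians of the zone difference lay closer to 0 after 24 h than in fed mice. The median log2 fold change of the periportal genes was 0.61 in fed mice, 0.59 after 8 h and 0.49 after 24 h, and without the library that stood apart the last value was 0.52. For pericentral genes the medians were -0.49, -0.46 and -0.40, and -0.44 without that library. In the genes with the largest differences the medians moved further. The 12 periportal genes of the rule had medians of 4.56, 3.89 and 2.59, or 3.13 at 24 h without pericentral replicate 2. All 12 were largest in fed mice and 10 were smallest after 24 h, with pericentral 24 h replicate 2 kept in these counts. The 12 pericentral genes had medians of -4.97, -4.39 and -4.21, or -4.52 without that library.

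**Figure D3:**
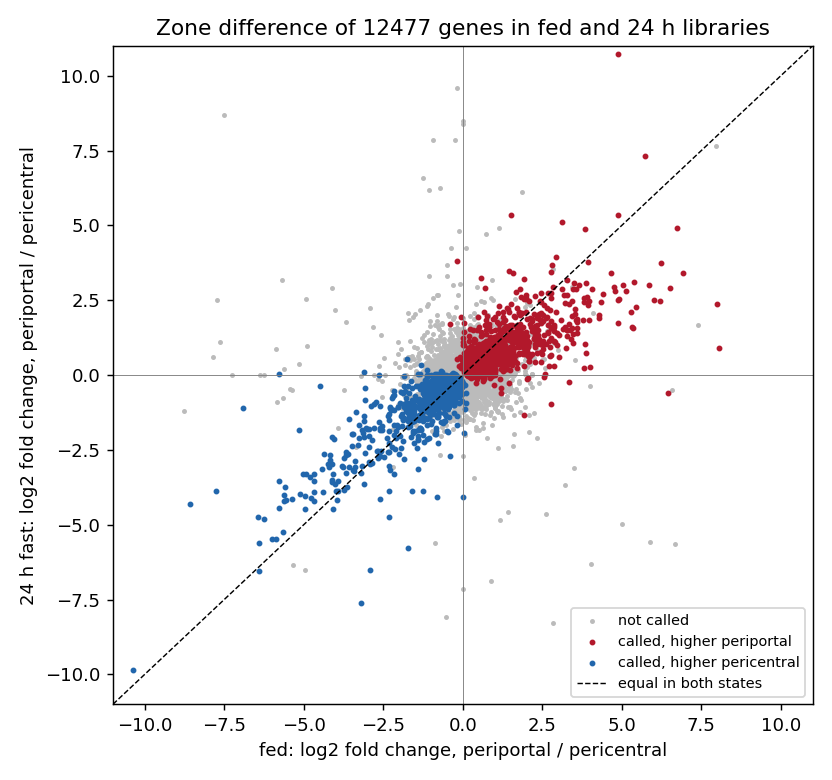
Zone difference of 12477 genes in fed mice (horizontal axis) against 24 h fasted mice (vertical axis), both as log2 fold change of periportal over pericentral libraries. Called genes are red (1289 periportal) or blue (1243 pericentral), and the dashed line marks equal differences. The 12 periportal genes with the largest differences under the rule lie below the line.

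Whether the zone difference itself differed between states was tested with 2 degrees of freedom. By edgeR no gene passed at an adjusted p under 0.05 (smallest 0.0729), limma-voom called 0 and DESeq2 33. At an unadjusted p under 0.05 there were 826 genes (6.62%). Among genes called between the zones the share was 10.8%, with 170 of 1289 periportal (13.2%) and 104 of 1243 pericentral genes (8.37%). Of the 12 periportal genes of the rule 9 had an unadjusted p under 0.05, and of the 12 pericentral ones 0. Both sets were chosen by size from these same data, and the counts were not taken without pericentral 24 h replicate 2. That library held Cryl1, for example, at 13.1 CPM, against 4.81 and 3.26 CPM in pericentral 24 h replicates 1 and 3. Not passing does not show that the difference was equal. For 1351 of the called genes (53.4%) the 95% intervals of all pairwise differences between states lay within 1 on the log2 scale, compared with 56.1% of all genes, while for 415 the estimates differed by more than 1.

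Some genes had nearly even estimates across states. Apoc2, the cofactor of lipoprotein lipase, held 52.1 to 97.4 CPM in pericentral and 124 to 231 CPM in periportal libraries, without overlap. Its log2 fold changes were 1.29, 1.27 and 1.19 (1.31) in fed, 8 h and 24 h mice. Paxx, a DNA end-joining factor, had 1.36, 1.28 and 1.28 (1.33), and the carbonic anhydrase gene Car14 had 1.15, 1.19 and 1.08 (1.19).

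On the pericentral side Fitm1, which acts in lipid droplet formation, had log2 fold changes of -3.91, -3.94 and -3.86 (-4.03), with 21.8 to 44.5 CPM against 0.920 to 3.64 CPM. Rnf43, a ligase that removes Wnt receptors, had -1.59, -1.55 and -1.55 (-1.45). Acot1, an acyl-CoA thioesterase, had -1.52, -1.53 and -1.52 (-1.63) although its own level was higher after 24 h, by 4.09 on the log2 scale from fed to 24 h averaged over the zones (edgeR adjusted p for any difference between states 0.00013). After 8 h the zones of Acot1 overlapped, at 13.5, 75.2 and 109 CPM in pericentral and 45.0, 10.7 and 12.6 CPM in periportal libraries. Its even estimates therefore do not show a constant zone difference. Its call (SE 0.40, edgeR adjusted p 0.0145) was lost in 4 of 32 alternatives.

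Other genes varied. The zone difference of Cryl1 was 5.44 in fed mice, 4.42 after 8 h and 2.29 after 24 h on the log2 scale (3.10 without pericentral replicate 2), and that of Aqp4 4.89, 4.42 and 1.75 (2.10). Foxq1, a forkhead transcription factor, had 2.54, 1.40 and -0.08, and without that replicate 1.36 at 24 h, where that library held 30.1 CPM and its group's remaining pair 4.60 and 5.35 CPM. Its averaged call (log2 fold change 1.29, SE 0.38, edgeR adjusted p 0.0296) was lost in 13 of 32 alternatives. Of pericentral genes, Cyp2c40 had -3.12, -3.54 and -1.52 (-1.94), the fatty acid transporter gene Cd36 -3.10, -1.66 and -3.63 (-3.82), and the asparagine synthetase gene Asns -2.79, -1.75 and -0.97 (-1.39).

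Averaging also brought in genes that no single state called. Nipal1, a magnesium transporter gene, had an averaged log2 fold change of 2.39 (SE 0.41, edgeR adjusted p 0.000887), with 0.394 to 11.4 CPM in pericentral and 2.91 to 45.2 CPM in periportal libraries. The ranges over all states overlapped, while within the fed state the highest pericentral value was 1.21 CPM and the lowest periportal one 4.13 CPM. Slc22a7, an organic anion transporter gene, had 1.97, and the G protein regulator gene Rgs16 1.38. On the pericentral side were Elovl3, a fatty acid elongase gene (-1.97), the steroid dehydrogenase gene Hsd3b5 (-1.90), which has close paralogs, and the transcription factor gene Pitx3 (-2.25). Elovl3 (chr19:46131897-46135694, plus strand) and Pitx3 (chr19:46135685-46148326, minus strand) overlap at their ends, and the use of strand in counting is not stated. The calls of Pitx3 and Rgs16 were lost in 13 and 7 of 32 alternatives.

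Averaged over the zones, 5366 genes (43%) were called for a difference between states, which also differ in clock hour and in the time since the sucrose meal. Among genes called between zones 1243 (49.1%) were also called between states, and 1289 were not. The zone difference exceeded the change of each fast relative to fed mice in 66.1% of zone-called genes and 25.7% of all genes. The change from the shorter to the longer fast was left out of this comparison. These shares are a description, since the called genes were selected for their zone difference.

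**Figure D4:**
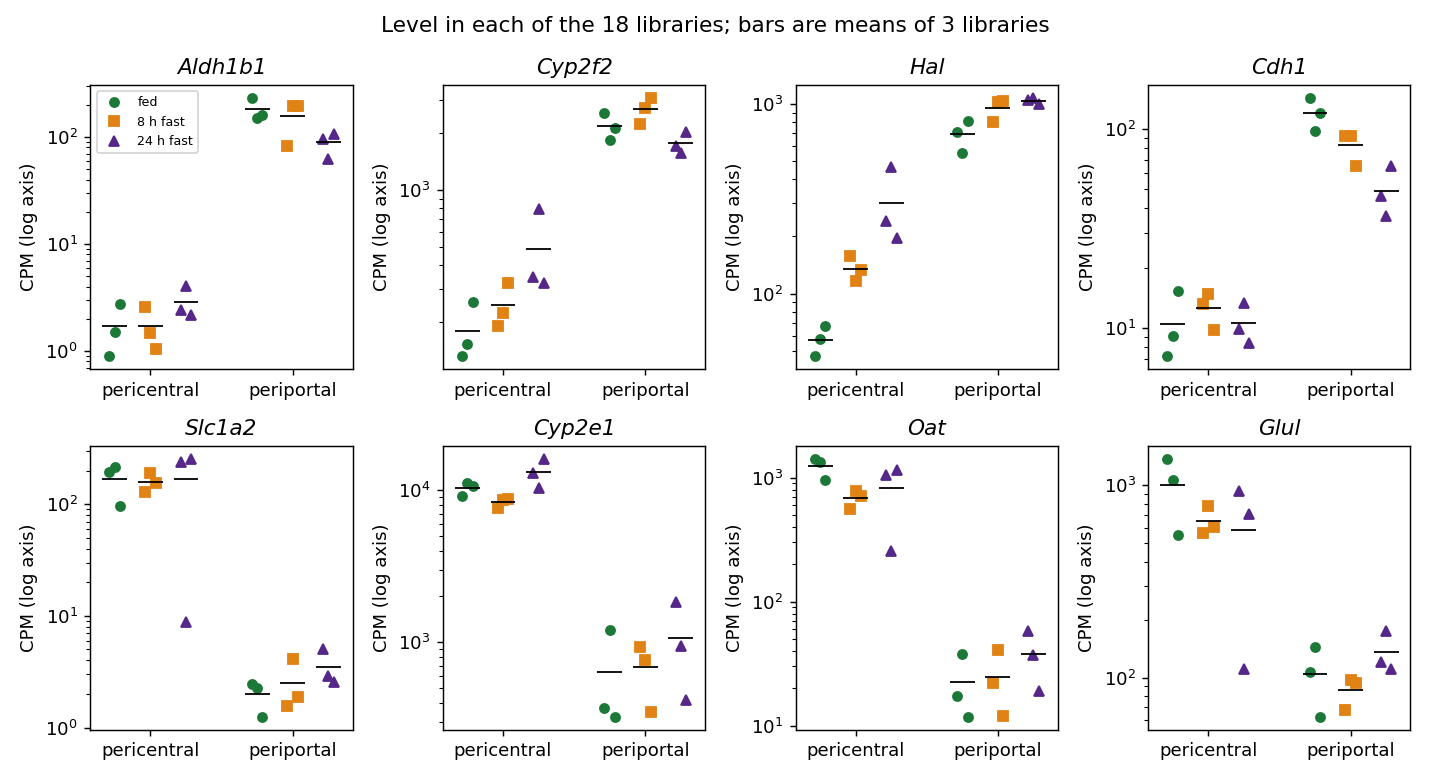
Level of 4 periportal (top) and 4 pericentral genes (bottom) in each of the 18 libraries, in CPM on a log axis, with bars at the mean of 3 libraries. Symbols give the feeding state. All genes except Glul separate the 9 pericentral from the 9 periportal libraries, and 1 pericentral 24 h library is low for Slc1a2, Oat and Glul.

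Gene lists for liver functions were read against the shares of all genes, 10.3% periportal and 9.96% pericentral. All 7 pericentral markers tested were called pericentral, with a median log2 fold change of -3.76, and all 8 periportal markers were called periportal, with a median of 2.78, compared with 0.00 over all genes. Cyp2e1, an ethanol-oxidising P450, held 7611 to 16062 CPM on the pericentral side and 325 to 1826 CPM on the periportal side. Glul, the glutamine synthetase, held 552 to 1375 CPM in 8 pericentral libraries, 111 CPM in 24 h replicate 2 and 62.6 to 175 CPM in periportal libraries. Its 24 h zone difference was -2.10 (edgeR adjusted p 0.0623) and -2.59 without that library. Rhbg is not analysed here.

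Among periportal markers the histidine ammonia-lyase Hal went from 46.8, 57.7 and 67.1 CPM in fed pericentral libraries to 243, 466 and 196 CPM after 24 h. In periportal libraries it went from 706, 552 and 812 CPM to 1054, 1076 and 993 CPM. The zones did not overlap in any state, and the log2 fold change was 3.59, 2.81 and 1.79 across the states (2.25 at 24 h without pericentral replicate 2). The serine dehydratase Sds showed 4.91, 4.13 and 2.55 (3.04). The cell adhesion protein Cdh1 showed 3.52, 2.72 and 2.21 (2.42), with 7.22 to 15.3 CPM against 36.3 to 143 CPM. Hsd17b6, at 0 to 2.70 CPM, was called on average (edgeR adjusted p 0.0368) but lost the call in 16 of 32 alternatives.

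Of 9 genes of the urea cycle and ammonia supply, 4 were called periportal and 2 pericentral. Otc, Ass1, Asl and Arg1, which encode enzymes of the cycle itself, were higher in periportal libraries by 0.52, 0.71, 0.94 and 0.63 on the log2 scale. Asl had 0.93, 0.96 and 0.91 (0.85) in the 3 states. Nags, which makes the activator of the first step, and Glud1, which releases ammonia from glutamate, were pericentral at -0.26 and -0.30. Cps1, the entry enzyme, did not pass at 0.24 (SE 0.12, edgeR adjusted p 0.176).

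Of 11 gluconeogenesis genes 8 were called periportal and 0 pericentral, with a median log2 fold change of 0.64. Fbp1, the fructose bisphosphatase, was the steadiest, at 0.94, 1.02 and 0.79 (0.87), with 651 to 892 CPM in pericentral and 1311 to 1490 CPM in periportal libraries. G6pc, which releases free glucose, had 1.59, 1.56 and 0.92 (0.72), and Pcx, the pyruvate carboxylase, 1.18, 1.43 and 0.51 (0.44). Pck1, the phosphoenolpyruvate carboxykinase gene, was less even. Its pericentral libraries held 75.7, 276 and 157 CPM in fed mice and 4791, 4844 and 4825 CPM after 24 h, and its periportal libraries 594, 927 and 2198 CPM and then 6027, 5505 and 6221 CPM. On average over the states the log2 fold change reached 1.43 (SE 0.27, edgeR adjusted p 0.00146), made up of 2.87, 1.14 and 0.30 (0.30), and the test across states gave an unadjusted p of 0.0048 (edgeR adjusted p 0.61).

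Amino acid breakdown was divided, with 6 of 22 genes called periportal and 6 pericentral. The periportal ones included Gldc, the glycine cleavage decarboxylase, at 2.14 (SE 0.11, edgeR adjusted p 4.57e-09), with 35.5 to 141 CPM against 267 to 546 CPM. The histidine pathway genes Uroc1, Amdhd1 and Ftcd were all periportal, at 1.59, 1.23 and 1.43, which with Hal covers the route from histidine to glutamate. Tdo2 and Prodh2 were at 0.63 and 0.18. The pericentral ones were Hpd, Prodh, Aldh4a1, Hibadh, Ivd and Acad8, all smaller than 0.6 in size.

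Plasma proteins leaned periportal, with 10 of 22 genes called there and 0 pericentral (median 0.35). Alb, the albumin gene, took 4.36% to 8.18% of counts in pericentral and 9.56% to 13.2% in periportal libraries, a log2 fold change of 1.14 (SE 0.12, edgeR adjusted p 2.67e-06). Apoc3, C3 and F9 were at 0.63, 0.53 and 0.46. Nuclear genes of oxidative phosphorylation were called periportal in 32 of 74 cases and pericentral in 0, all of small size (0.16 to 0.50). The largest was Atp5g1, a subunit of the ATP synthase rotor, at 129 to 164 CPM against 191 to 242 CPM. With the level of the other-cell markers as a covariate, an alternative added after seeing the data, the periportal calls fell to 2 of 22 and 6 of 74. Over all genes the periportal calls fell from 1289 to 690 in the same fit. The marker level itself differed between the zones, so these falls do not give the part of other cells.

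Of 13 cytochromes P450 and their receptors 10 were called pericentral and 0 periportal, with a median of -1.26. Cyp2c37, Cyp2c29, Cyp2c50 and Cyp2c54 had -3.63, -3.39, -2.43 and -2.03. The aryl hydrocarbon receptor Ahr had -2.56, with 28.6 to 80.5 CPM against 3.67 to 18.2 CPM, and the constitutive androstane receptor Nr1i3 had -1.26. The pregnane X receptor Nr1i2 did not pass at 0.10 (SE 0.07). A P450 outside this list, the periportal marker Cyp2f2, was higher in all periportal libraries, at 1578 to 3075 CPM against 132 to 793 CPM (log2 fold change 2.97, SE 0.20, edgeR adjusted p 6.7e-08).

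Of 13 conjugation enzymes 4 were called pericentral (Gstm2, Gsta3, Ugt1a1 and Ugt2b1) and 3 periportal (Gstp1, Sult1a1 and Sult5a1). The largest were the glutathione transferase Gstm2 at -3.03 (SE 0.32) and the sulfotransferase Sult5a1 at 3.43 (SE 0.24), with 0.297 to 1.29 CPM against 4.07 to 12.9 CPM. Glutathione transferases were found on both sides. Gstp1 and the Cyp2c genes share reads with near-identical copies, so their separate levels are uncertain.

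Of 13 bile acid genes 4 synthesis enzymes were pericentral. Cyp7a1, the rate-limiting enzyme, held 180 to 491 CPM in pericentral and 7.45 to 82.8 CPM in periportal libraries, a log2 fold change of -3.39 (SE 0.44, edgeR adjusted p 8.23e-05) that was -3.46, -3.55 and -3.16 (-3.26) by state. Hsd3b7, Cyp27a1 and Cyp8b1 had -1.38, -1.26 and -0.96. Nr0b2, the receptor SHP that represses Cyp7a1, was periportal at 1.35 (SE 0.27, edgeR adjusted p 0.00234), and so was the export pump Abcb11 at 0.32. Of 10 heme genes 5 were pericentral and 0 periportal. The biliverdin reductase Blvrb had -1.68, and the synthesis enzymes Cpox, Alad and Urod had -0.74, -0.68 and -0.18.

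Of 38 proteasome genes 25 were called pericentral and 0 periportal, all small. The median was -0.20, and Psma5, a subunit of the catalytic core, had the largest difference at -0.46 (SE 0.06, edgeR adjusted p 3.89e-05), with 48.5 to 65.0 CPM against 35.5 to 49.0 CPM. The covariate left 22 of these calls, while over all genes the pericentral calls fell from 1243 to 687. Of 78 cytosolic ribosomal protein genes only Rplp1 and Rpl29 were called, both pericentral, at -0.22 and -0.18.

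In 2 metabolic lists most genes were called between feeding states and fewer between zones. Of 19 genes of fatty acid oxidation and ketogenesis 17 were called between states, 0 periportal and 4 pericentral, among them the ketone body enzyme Bdh1 at -0.74 and the fasting receptor Ppara at -0.28. Of 16 genes of glycolysis and lipogenesis 14 were called between states, and 2 were called between zones, both periportal, among them the ketohexokinase gene Khk at 0.77. The fatty acid synthase gene Fasn was at -0.15, 0.76 and 0.94 (0.94) on the log2 scale in the 3 states and did not pass on average (edgeR adjusted p 0.122). In fed mice its pericentral libraries held 1735, 864 and 1211 CPM, and its periportal libraries 1457, 1527 and 452 CPM. The low fed periportal value is that of replicate 3, so the fed sign rests on that library. Acly was also low there, at 785 CPM against 3456 and 3286 CPM in fed periportal replicates 1 and 2. Of 10 iron genes only the iron exporter Slc40a1 was called, periportal at 0.81. Of 8 oxygen sensing genes the hydroxylase Egln3 and Ndrg1 were pericentral at -1.54 and -0.71, and Hif1a and Egln1 periportal at 0.20 and 0.28. The periportal calls numbered 1 without pericentral 24 h replicate 2, 1 when scaled without the 20 most abundant genes and 0 with the covariate. Ndrg1 separated the zones only after 8 h, at 12.6 to 15.6 CPM in pericentral and 2.67 to 5.09 CPM in periportal libraries. Its zones overlapped in fed mice (1.62 to 2.87 against 1.28 to 2.56 CPM) and after 24 h (2.46 to 4.99 against 2.40 to 3.66 CPM). Of 10 immediate early and heat shock genes 2, Junb and Ier2, were called, both periportal at 0.84 and 0.94.

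**Figure D5:**
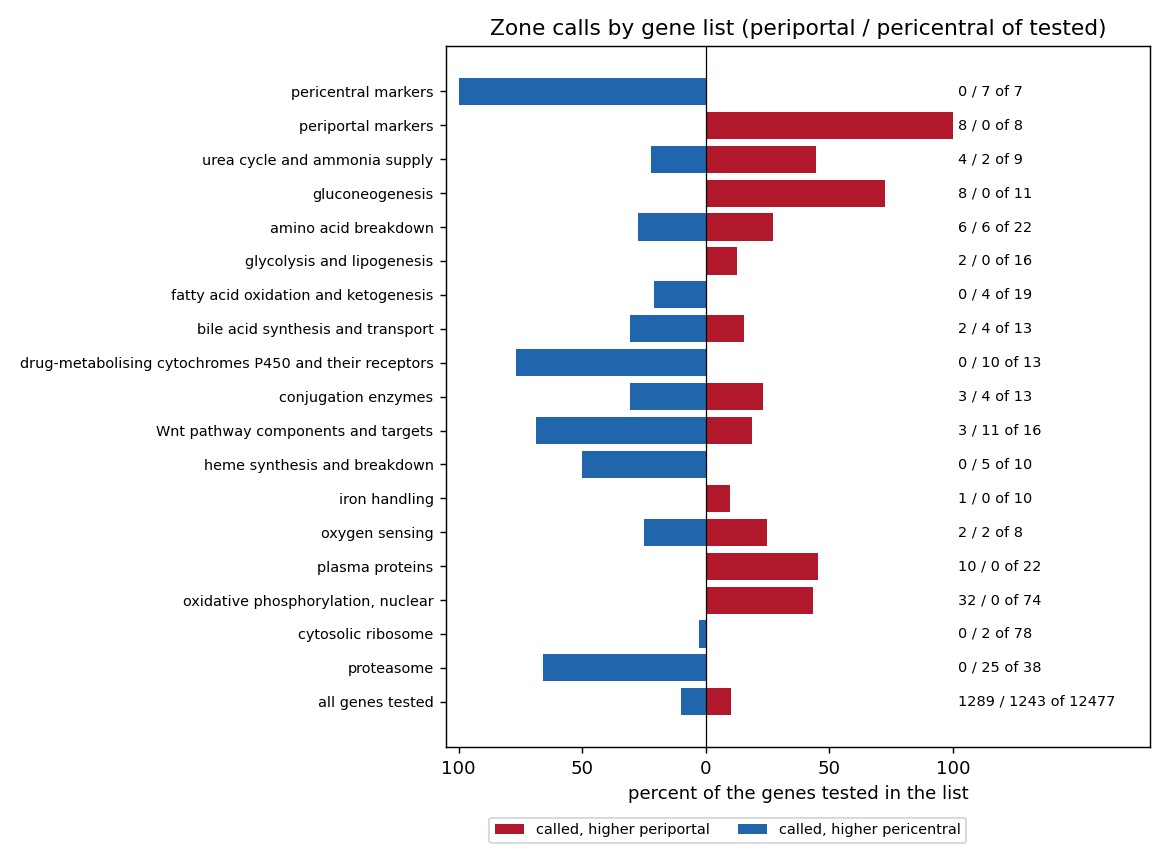
Share of tested genes in each list that were called higher in periportal (red, to the right) or pericentral libraries (blue, to the left), in percent, with the counts at the right margin. The bottom row gives the share over all 12477 genes, 10.3% and 9.96%. The P450, proteasome and Wnt lists lean pericentral, and gluconeogenesis, plasma proteins and oxidative phosphorylation lean periportal.

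Of 16 Wnt pathway components and targets 11 were called pericentral and 3 periportal, with a median of -1.70. The targets Axin2, Tbx3 and Tnfrsf19 had log2 fold changes of -3.34, -3.89 and -3.22. The R-spondin receptor Lgr5 held 1.29 to 11.7 CPM in pericentral and 0.147 to 0.447 CPM in periportal libraries, a log2 fold change of -4.40 (SE 0.25, edgeR adjusted p 6.90e-09). Sp5, a transcription factor induced by Wnt, held 0.11 to 2.13 CPM in pericentral libraries and was at 0 in 7 of the 9 periportal ones (edgeR adjusted p 9.02e-07). The feedback inhibitors Notum and Nkd1 had -2.13 and -1.83, the factor Tcf7 -1.83, the ligases Rnf43 and Znrf3 -1.56 and -0.43, and the coreceptor Lrp5 -0.53. The periportal members were the pathway components Tcf7l2, Apc and Lrp6 at 0.42, 0.28 and 0.32, and β-catenin, Ctnnb1, did not pass at 0.14 (SE 0.05, edgeR adjusted p 0.0602). With the covariate the list had 1 periportal and 9 pericentral calls.

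Promoters of 4 zoned genes are shown because the letters CTTTGAT, the core that TCF factors are known to bind, were searched on both strands in the 250 bases before the start of each gene. The sequences are from RefSeq (GRCm38.p6), 5′ to 3′ on the strand of the gene, and none overlaps an annotated exon. Capitals mark CTTTGAT or its reverse complement ATCAAAG, and TATAAA or its reverse complement TTTATA. Sp5 (chr2:70474673-70474922, plus strand) and the pericentral marker Lect2 (chr13:56548539-56548788, minus strand) hold CTTTGAT starting 104 and 32 bases before the gene. Aldh1b1 (chr4:45798772-45799021, plus strand) holds none, and Hal (chr10:93488518-93488767, plus strand) holds it at 199 bases although it is periportal. For Lect2, unlike Sp5, Aldh1b1 and Hal, the bases checked after this start were not found in an annotated transcript, so its distance is uncertain.
Sp5: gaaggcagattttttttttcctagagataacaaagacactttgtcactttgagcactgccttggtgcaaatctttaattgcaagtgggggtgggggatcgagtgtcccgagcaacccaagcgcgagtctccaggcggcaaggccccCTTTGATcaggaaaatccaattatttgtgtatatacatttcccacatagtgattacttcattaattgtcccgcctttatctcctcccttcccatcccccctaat
Lect2: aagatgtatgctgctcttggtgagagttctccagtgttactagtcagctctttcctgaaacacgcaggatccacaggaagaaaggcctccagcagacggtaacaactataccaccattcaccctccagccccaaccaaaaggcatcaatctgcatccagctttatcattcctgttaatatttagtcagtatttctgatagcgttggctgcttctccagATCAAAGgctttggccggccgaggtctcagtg
Aldh1b1: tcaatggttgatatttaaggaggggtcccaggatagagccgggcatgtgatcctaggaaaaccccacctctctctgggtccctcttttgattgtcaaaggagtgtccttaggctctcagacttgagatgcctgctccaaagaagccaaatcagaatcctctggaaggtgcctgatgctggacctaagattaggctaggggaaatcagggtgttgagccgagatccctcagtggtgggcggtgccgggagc
Hal: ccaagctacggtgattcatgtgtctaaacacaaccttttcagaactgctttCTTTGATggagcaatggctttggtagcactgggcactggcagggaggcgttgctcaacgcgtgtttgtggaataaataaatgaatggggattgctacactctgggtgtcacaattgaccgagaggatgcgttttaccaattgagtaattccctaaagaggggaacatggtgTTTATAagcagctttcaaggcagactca
A promoter in the table was matched for 9621 of the 12477 genes, and 2.89% of these held CTTTGAT. The share was 3.96% (38 of 959) for pericentral and 2.19% (21 of 959) for periportal genes. Among those with a log2 size of at least 2 it was 10.2% (10 of 98) and 2.78% (3 of 108). Of 6 letter strings searched in the same way, TATAAA was in 8.50% of the promoters of tested genes, 10.1% of pericentral and 10.4% of periportal ones. At a size of at least 2, other strings were also more frequent on the pericentral side. These were TATAAA at 17.3% against 11.1%, TGTTTAC at 6.12% against 0.926% (2.80% of all tested) and CAAAGTCCA at 2.04% against 0.926% (0.499%). CACGTG was at 10.2% against 3.70%, but 9.64% of all tested promoters held it, so the pericentral share was near that of all genes. TGACGTCA went the other way, at 1.02% against 1.85% (2.98% of all tested). A match describes letters, not a bound site.

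Position in the genome was also described. Of 12386 pairs of tested genes next to each other on a chromosome, both were called in 623, in the same zone for 461 and in opposite zones for 162. Of all genes tested, 20.3% were called, 10.3% periportal and 9.96% pericentral. How many such pairs these shares alone would give was not tested. The longest run was of 12 pericentral genes of the Cyp2c cluster (chr19:39007019-40113950), with log2 sizes from 1.37 to 4.51. A run of 9 major urinary protein genes and pseudogenes on chromosome 4 (chr4:61435790-61800237) was also pericentral. The longest run in the other direction was of 8 mitochondrial genes, from mt-Co1 to mt-Nd4, at 0.29 to 0.49. Members of the Cyp2c and major urinary protein clusters share sequence, and reads from copies cannot be fully separated, so neighbours in a run are not independent.

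Some results moved with the other-cell markers. With their level as a covariate 1377 genes were called, 690 periportal and 687 pericentral, and 1295 of these were among the 2532. All 24 genes of the rule were still called, with log2 fold changes of 2.87 to 5.85 for the periportal and -5.73 to -3.46 for the pericentral ones. The endothelial and Kupffer cell markers themselves were among the periportal calls, for example Clec4g at 2.60 (SE 0.63, edgeR adjusted p 0.00869), with 0.0819 to 1.18 CPM against 0.0808 to 5.50 CPM. The summed marker level itself differed between the zones, with a median of 36.1 CPM in periportal and 14.1 CPM in pericentral libraries. The covariate can therefore take up zone differences of any source. The part of other cells in the zone differences was not tested beyond it. Without pericentral 24 h replicate 2 the test called 2427 genes, of which 2242 were among the 2532.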

How the data were processed

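RNA of hepatocytes from 6 groups of 3 libraries was sequenced. The authors deposited a table of estimated counts per gene, made with kallisto 0.46.0 and mm10 per the submitters' processing notes; the use of strand is not given in the sources used here. Of the values above 0, 41.9% to 46.1% per library were whole, and all were rounded to units of 1. Groups came from the labels. Genes with a minimum count of 10 by edgeR's filter were kept (12477 genes, at least 99.95% of counts per library). Counts were scaled by TMM and fitted with edgeR 4.0.16 in R 4.3.3 (robust quasi-likelihood, 1 coefficient per group, no covariate), and p-values were adjusted by Benjamini-Hochberg over all genes, with a threshold of 0.05. All SEs are the absolute log2 fold change divided by the square root of F. CPM are counts per 1000000 with TMM factors. On simulated counts for the averaged zone comparison over 12477 genes, 87% of 100 genes changed by a log2 of 1 and 94% of 100 changed by 2 were called, with 13 unchanged genes. These counts were drawn from the mean of each gene over all libraries and its fitted dispersion. They held no difference between states, no library between the zones and no other-cell difference. The shares therefore do not give the performance on the real libraries.

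Alternatives were DESeq2 1.42.0, limma-voom (limma 3.58.1), other scaling and filters, an additive design, subsets of the states, a replicate block, and each library left out. A covariate of other-cell markers was added after seeing the data. No pair of libraries within a group agreed within sampling noise (chi-square per gene 34.9 to 119).

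The members and lists were chosen with earlier results of these data known. The text names genes of the fixed lists. It also names the 12 genes in each direction with the largest difference among those called on average and in every state, with 10 CPM in the higher zone, no overlap and no predicted, Riken or pseudogene name. Among called genes with 10 CPM in the higher zone it names the 3 in each direction with the least and the most variation over states (log2 size of at least 1), the 3 largest called in no single state, families with members of a log2 size of at least 2 on both sides, and genes called for zone by state. Gene positions are from the GENCODE annotation of GRCm38, promoters from RefSeq. Intervals cover 95%. Some members of the lists are counted but not reported by name here.

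The other-cell lists gave these zone calls: 7 of 9 tested for sinusoidal endothelium, 9 of 13 for Kupffer cells and leukocytes, 0 of 4 for stellate cells and fibroblasts, 1 of 3 for portal endothelium, 2 of 4 for cholangiocytes and 2 of 4 for red blood cells, all periportal. The Kupffer cell calls numbered 4 without pericentral 24 h replicate 2 and 0 by limma-voom, and the red blood cell calls 0 in both.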

Additional observations from a re-analysis of the deposited data

Results flagged for a closer look

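For 2 genes the zone difference after 24 h differed from that in fed mice by edgeR's test of the difference itself, while DESeq2 called 38 and limma-voom 0 (962 by edgeR at an unadjusted p under 0.05). In Ctnnbip1 it was lower by 2.38 on the log2 scale: the change was -2.38 (SE 0.32, edgeR adjusted p 0.0159, 95% interval -3.06 to -1.70). Its pericentral level was 1.28, 1.65 and 1.83 CPM in fed mice and 4.92, 10.1 and 4.55 CPM after 24 h, while periportal libraries held 32.8, 28.0 and 32.4 CPM and then 27.6, 22.7 and 24.1 CPM. The highest of the 24 h pericentral values is that of the library that stood apart, and the other 2 also lay above all fed ones.

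Scg2, which encodes the secretory granule protein secretogranin II, was at 0 in all 3 fed pericentral libraries and at 0.454, 0.240 and 0.661 CPM in the fed periportal ones. After 24 h it held 0.469, 0.699 and 0.791 CPM in pericentral and 0.559, 0.333 and 0.414 CPM in periportal libraries. The fitted change of the zone difference, -7.05 (edgeR adjusted p 0.0473), depends on the prior count and is no bound. Against a floor of 3 counts over the group, fed periportal libraries were at least 12-fold higher. These levels rest on few reads.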

How the results depend on the processing

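The count of genes called between zones (2532) moved by more than 1.5 times with the other-cell marker level as a covariate (1377, of which 690 periportal and 687 pericentral), with only fed and 24 h libraries (1650, of which 808 periportal), and with only 8 h and 24 h libraries (1325, of which 652 periportal and 673 pericentral). The last pair of settings uses fewer libraries; otherwise the cause was not tested. Leaving out 1 library gave 2190 to 2790 genes, 1073 to 1365 periportal and 1083 to 1425 pericentral. Genes called in all 3 states (305) numbered 184 to 344, with 202 without pericentral 24 h replicate 1 and 184 without periportal 24 h replicate 3. Genes called between states numbered 4820 to 5275. The zone-by-state test called 0 genes, 33 by DESeq2, 1 with no filter and 0 to 5 with 1 library left out, namely 5 without pericentral 8 h replicate 3, 1 without periportal fed replicate 3, and 3, 2 and 1 without pericentral 24 h replicates 1, 2 and 3.

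Of the 40 genes chosen by size or evenness, 7 lost the call in 43 of 1280 values over 32 alternatives and 0 reversed (Foxq1, Pitx3, Rgs16, Acot1, Elovl3, Hsd3b5 and Asns). Reversed were the low other-cell markers Fcgr2b (-0.19), C1qa (-0.016) and C1qc (-0.11) with the covariate, and Scg2 (-0.23) with only 8 h and 24 h libraries. The covariate is a sum that includes these markers, so a smaller zone difference of theirs in that fit is built in. The median over all genes moved by at most 0.0089 with other scalings.

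The labels do not tie libraries of the same number in both zones, and no pairing was used: deviations of 9 pairs correlated at -0.0112 to 0.165, 3 over 0.1, all at 24 h (pairs with different numbers -0.121 to 0.0577). With the replicate number as a block 2619 genes were called, and 2483 with the block within state. The block gave 308 and 291 genes called in all 3 states.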
